A study of Mus musculus with 3 samples.

Results

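The genes described here are members of the TGF-beta and BMP pathway, measured in lungs of mice with a distant tumour and in a normal mouse lung. They were chosen by name: every gene whose only symbol in the platform's probe table begins with Tgfb, Bmp, Smad, Acvr, Inhb, Gdf or Ltbp, each represented by its brightest probe set. This gave 47 of the 8251 named genes, on 59 probe sets. By role they were 21 ligands, 11 receptors, 7 Smads, 4 latent TGF-beta binding proteins and 4 other genes with none of these roles. The 3 Affymetrix arrays held RNA from 1 B16-bearing lung sample (B16 is a mouse melanoma line), 1 LLC-bearing lung sample (LLC stands for Lewis lung carcinoma, a line from a mouse lung tumour) and 1 sample of normal lung as control. Tumour cells had been placed under the skin of the back, and per the series description the model stands for lungs before tumour cells arrive. The labels name no strain, age, tumour duration or number of animals.

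TGF-beta ligands are secreted in a latent form that latent binding proteins tether to the matrix, and they act once released. Ligand dimers bring type II and type I serine/threonine kinase receptors together, and the type I receptor then phosphorylates Smads. Smad2 and Smad3 carry TGF-beta and activin signals and Smad1 and Smad5 carry BMP signals, each with Smad4 as partner, while Smad6 and Smad7 inhibit the pathway. In lung the family is known for branching and alveolar growth, elastic matrix, fibrosis and the integrity of vessels.

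Each value below is a background-subtracted signal, scaled by 1 factor per array, and signals that did not reach a floor of 23.6 (40% of all values lie under it) were raised to 23.6. A fold with 1 side under this floor is therefore a lower bound. With 1 array per group there is no replicate, no error and no test, so every difference describes these arrays and not the conditions. Fewer cells of a type and less RNA per cell cannot be told apart in whole lung. As a yardstick, the robust SD of the log2 difference between B16-bearing and LLC-bearing lungs was 0.61 for genes with a mean signal up to 50, 0.50 from 50 to 100, 0.41 from 100 to 200 and 0.30 above 200. It holds both noise and real differences between the tumour models. The surfactant and airway markers on the array that were checked (3 of type 2 cells and 4 of club and airway cells) were all above the floor. Of the 4 airway markers, Cbr2 read 70.0 in B16-bearing and 52.5 in LLC-bearing lung, against 782 in control lung. The other 3 were higher than control in both lungs, so this check shows presence and not equal airway content. On the control probe sets for RNA integrity, the 3' over 5' signal of beta-actin was 1.56 in B16-bearing and 1.47 in LLC-bearing lung, against 1.44 in control. For Gapdh it was 1.20 and 1.001, against 0.957. Signals of different probe sets cannot be ranked against each other, so members are compared by their differences between lungs.

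Of the 47 members, 34 were above the floor on at least 1 array, and 28 on all 3. This share of 72.3% compares with 74.5% of all genes. All 4 latent binding proteins, 6 of 7 Smads, 14 of 21 ligands and 7 of 11 receptors were among them. Below the floor on all 3 arrays were the ligands Bmp7, Bmp8a, Bmp8b, Bmp15, Gdf11, Inhbb and Inhbe, the receptors Acvr1, Bmpr1a, Tgfbr1 and Tgfbr2, the receptor-regulated Smad3, and Bmp2k, a BMP2-inducible kinase. For these genes, the TGF-beta receptor kinases included, the arrays give no comparison between lungs. Bmp15 is known as an oocyte factor and Inhbe as a gene of liver.

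Few members differed by 2-fold. In B16-bearing lung against control, 0 members were at least 2-fold higher (2.34% of all genes were) and 1 was at least 2-fold lower, Bmp6 (2.13% of members, against 3.42% of all genes). In LLC-bearing lung against control, 1 was at least 2-fold higher, Tgfbi (2.87% of all genes), and 2 were at least 2-fold lower, Gdf3 and Gdf9 (4.26%, against 2.17% of all genes). Between B16-bearing and LLC-bearing lungs, 3 members were at least 2-fold higher, Gdf3, Gdf9 and Tgfb1i1 (6.38%, against 2.47%), and 3 at least 2-fold lower, Bmp6, Tgfb1 and Tgfbi (6.38%, against 3.59%). At 1.5-fold, 5 members were higher and 4 lower in B16-bearing lung than in control (6.81% and 9.94% of all genes), and 3 higher and 4 lower in LLC-bearing lung than in control (6.77% and 6.59%). Against LLC-bearing lung, 5 were at least 1.5-fold higher in B16-bearing lung and 6 lower (6.63% and 9.3%). A single gene makes up 2.13% of the members, so each of these shares differs from that of all genes by less than the weight of 2 genes.

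**Figure D1:**
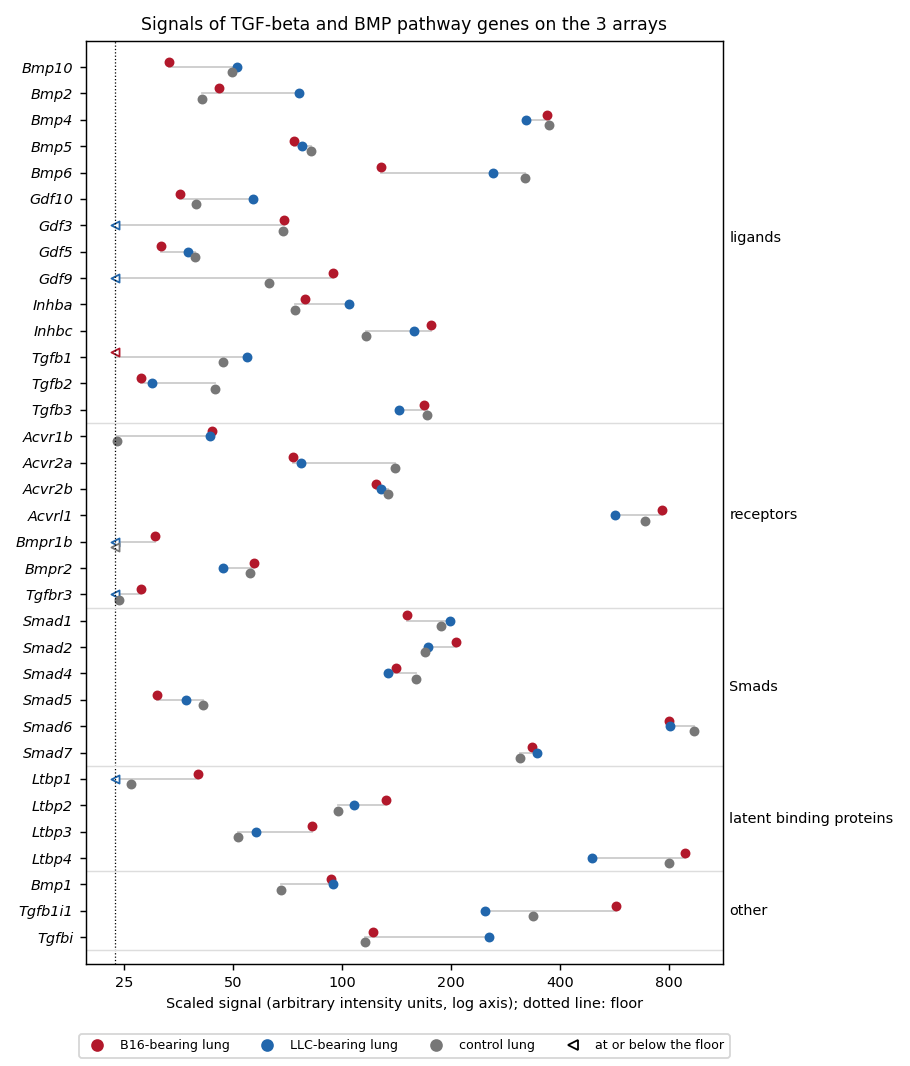
Scaled signals (log axis) of the 34 members above the floor on at least 1 array, by role, with 1 point per array for B16-bearing, LLC-bearing and control lung; open triangles mark values at or below the floor of 23.6. The 3 points lie close together for the Smads and are at least 2-fold apart for Bmp6, Gdf3, Gdf9, Tgfb1, Tgfb1i1 and Tgfbi.

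Among the ligands, Bmp6 was the member with a 2-fold difference on signals above 100. Bmp6 (gene ID 12161), a BMP known in adults for control of iron through liver endothelium, had a signal of 128 in B16-bearing lung and 261 in LLC-bearing lung, against 319 in control lung. B16-bearing lung was low and LLC-bearing lung lay near control. The log2 differences from control were −1.32 (2.49-fold lower) and −0.29 (1.22-fold lower). The second Bmp6 probe set gave the same order, with 142 and 205 against 250, which is 1.76-fold and 1.22-fold lower. Bmp4, a BMP of lung development, read 368 and 322 against 374 on its brightest probe set (its ID has the suffix s), a flat profile. Its other probe set, whose ID marks relaxed design rules, read 159 and 232 against 259, so the pair of probe sets did not match in B16-bearing lung.

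The TGF-beta ligands differed little or lay close to the floor. Tgfb3 read 169 in B16-bearing and 143 in LLC-bearing lung, against 172 in control lung, differences of −0.03 and −0.26. Tgfb1 (gene ID 21803), the main TGF-beta of blood cells and platelets, was below the floor in B16-bearing lung (−41.2) and read 54.8 in LLC-bearing lung, against 47.0 in control lung. That makes B16-bearing lung at least 1.99-fold lower than control and at least 2.32-fold lower than LLC-bearing lung. It rests on 1 dim probe set. Tgfb2 read 27.8 and 29.8 against 44.6, or 1.60-fold and 1.49-fold lower, and all 3 values were in the dimmest range. Of 4 platelet markers on the array 2 were above the floor on any array. Gp9 read 137 in B16-bearing and 105 in LLC-bearing lung, against 89.1 in control lung. It was highest in B16-bearing lung, where Tgfb1 was below the floor. Gp5 barely passed the floor in B16-bearing lung (24.7), and Pf4 and Gp1bb were below it on all 3 arrays. The part of platelets in the Tgfb1 values was not tested.

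Bmp2 and the activin subunit Inhba were highest in LLC-bearing lung. Bmp2 read 45.7 in B16-bearing and 76.0 in LLC-bearing lung, against 41.1 in control lung, a log2 difference of 0.89 in LLC-bearing lung. The ID of this Bmp2 probe set marks relaxed design rules, and the other 2 Bmp2 probe sets were below the floor throughout. Inhba, the subunit of activin A, read 79.3 and 105 against 74.1. Inhbc, an activin subunit known from liver, was higher in both tumour-bearing lungs, with 176 and 158 against 117 (log2 differences of 0.59 and 0.43). Summed hepatocyte markers (9 on the array, 8 above the floor on any array, Ttr below it throughout) were 256 and 3604 against 172, so Inhbc was not highest where these markers were. Their part in the Inhbc values was not tested.

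Gdf9 and Gdf3 had a lower bound above 2-fold in LLC-bearing lung against control, on signals under 100. Gdf9 (gene ID 14566), an oocyte factor, read 94.5 in B16-bearing lung and lay below the floor in LLC-bearing lung, against 63.0 in control lung. LLC-bearing lung was at least 2.67-fold lower than control, and B16-bearing lung lay above it by a log2 difference of at least 2.0. Gdf3 (gene ID 14562), a factor of early embryos and pluripotent cells, read 69.2 in B16-bearing lung and was just below the floor in LLC-bearing lung (22.2), against 68.8 in control lung. LLC-bearing lung thus stood apart for both genes. No array put the second Gdf3 probe set above the floor. Gdf10 read 35.6 and 56.7 against 39.6, Gdf5 31.6 and 37.6 against 39.2, and Bmp5 73.6 and 77.7 against 82.2. Bmp10, known from heart, read 33.4 and 51.4 against 49.8. Summed markers of cardiac and skeletal muscle (9 on the array, 8 above the floor on any array, Ckm below it throughout) were 991 and 848 against 2067. Bmp10 did not share this order, and the part of muscle in its values was not tested.

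Among the receptors, Acvr2a was lower and Acvr1b higher than control in both tumour-bearing lungs. Acvr2a (gene ID 11480), a type II receptor for activins and several BMPs, read 73.2 in B16-bearing and 77.0 in LLC-bearing lung, against 140 in control lung (1.91-fold and 1.82-fold lower). Its second probe set read 50.3 and 66.9 against 104, which is 2.07-fold and 1.56-fold lower. Both probe sets thus put control lung highest. Summed markers of cardiac and skeletal muscle (991 and 848 against 2067) did so too. Those of B lymphocytes (6 on the array) were 339 and 402 against 792, again highest in control lung. The part of such cells in the Acvr2a values was not tested. Acvr1b, a type I activin receptor, read 43.8 and 43.2 against 24.0, log2 differences of 0.87 and 0.85, but its control signal lay just above the floor. These were the 2 members that differed from control by at least 1.5-fold in the same direction in both lungs, 1 higher (2.28% of all genes) and 1 lower (3.07%). Both lungs were set against the same control array.

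The other receptors above the floor were close to even. Acvrl1 (ALK1), the type I receptor of endothelium, read 766 in B16-bearing and 567 in LLC-bearing lung, against 686 in control lung. The ID of this probe set marks relaxed design rules. The other 2 Acvrl1 probe sets read 514 and 471 against 513, and 419 and 383 against 495. All 3 put LLC-bearing lung lowest, by 1.21-fold, 1.09-fold and 1.29-fold against control. Bmpr2, the BMP type II receptor mutated in people with heritable pulmonary arterial hypertension, read 57.3 and 46.9 against 55.8. Acvr2b, a type II receptor related to Acvr2a, read 124 and 128 against 134 and so did not share the difference of Acvr2a. Tgfbr3, the co-receptor betaglycan, and Bmpr1b, a type I BMP receptor, barely passed the floor in B16-bearing lung (27.9 and 30.4). Summed endothelial markers (9 of 9 above the floor) were 5637 and 5646 against 5432. Single markers went both ways, with 4 of the 9 above control in B16-bearing lung and 5 in LLC-bearing lung. Log2 differences were 1.05 and 0.60 for Vwf and −0.88 and −0.41 for Emcn, so the sum does not show that endothelial content was even.

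The Smads differed little between the lungs. Smad6, the inhibitory Smad of BMP signalling, read 800.4 in B16-bearing and 805 in LLC-bearing lung, against 937 in control lung (−0.23 and −0.22). Smad7, the inhibitory Smad that TGF-beta itself induces, read 335 and 346 against 309.5 (0.11 and 0.16). Neither inhibitor, both known as feedback targets of the pathway, differed from control by more than 1.17-fold. Smad1 read 151 and 198 against 188, and its second probe set 78.6 and 88.8 against 92.0. Smad5 read 30.9 and 37.1 against 41.3, near the floor. Smad2 read 207 and 172 against 169.9, and Smad4 read 141 and 134 against 160.5. In all 3 comparisons, 0 of the 7 Smads differed by 1.5-fold in either direction. In at least 1 comparison, 16 of the 47 members (34%) and 27.3% of all genes did so. Smad3 was below the floor throughout and could not differ, and 7 genes are too few to set 0 apart from that share. The log2 differences of the 6 Smads above the floor ran from −0.42 to 0.28 in B16-bearing lung and from −0.26 to 0.16 in LLC-bearing lung, both against control.

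**Figure D2:**
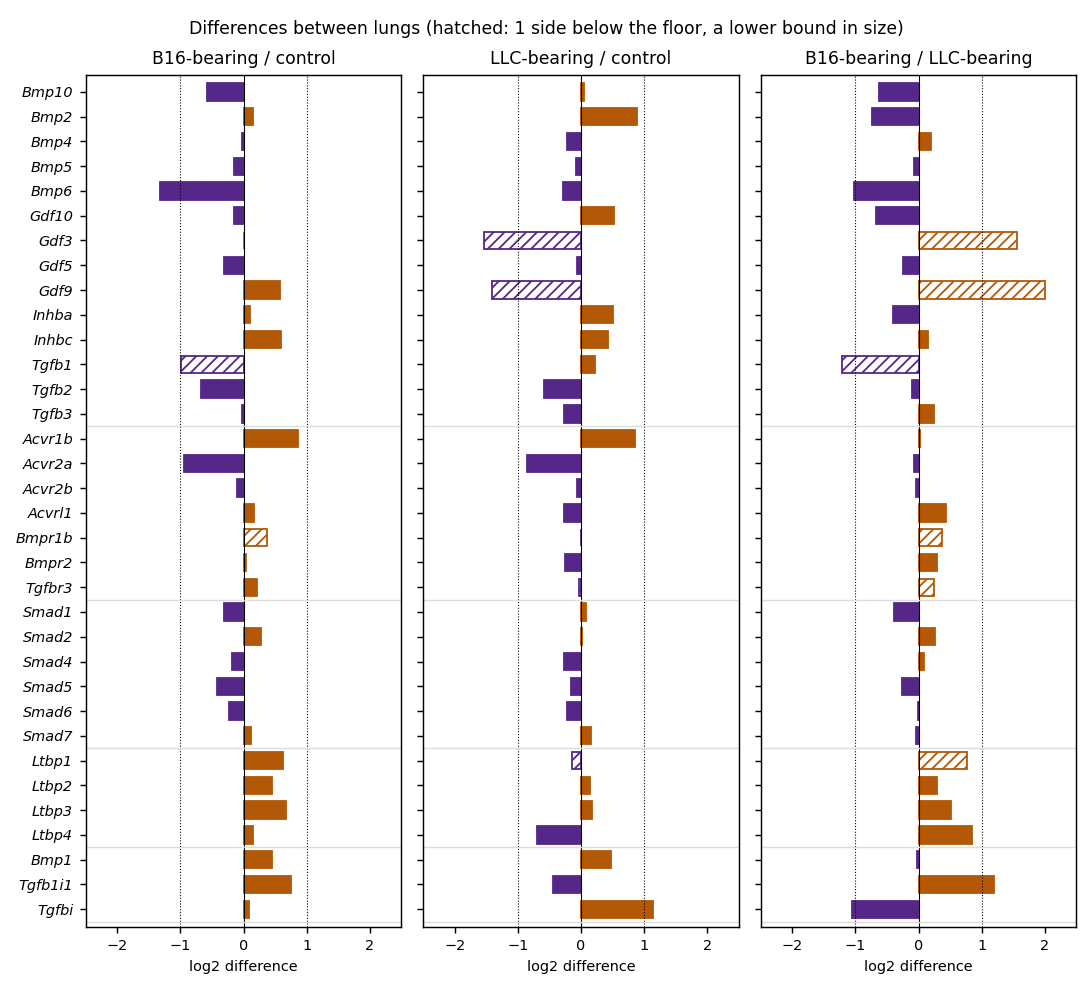
Log2 differences of the 34 members above the floor on at least 1 array, in the order of the plot of signals, for B16-bearing over control, LLC-bearing over control and B16-bearing over LLC-bearing lung; dotted lines mark 2-fold and hatched bars are lower bounds. All 4 latent binding proteins point right in the first and the third panel, and the Smad bars stay within 1.5-fold.

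The latent binding proteins were highest in B16-bearing lung. Ltbp4, which takes part in elastic fibre assembly in lung, read 888 in B16-bearing and 492 in LLC-bearing lung, against 801 in control lung, so it was 1.11-fold higher and 1.63-fold lower than control. Ltbp2, an elastic-fibre protein that does not bind latent TGF-beta, read 133 and 108 against 97.7. Ltbp3 read 82.6 and 57.9 against 51.6 (1.60-fold and 1.12-fold higher). Ltbp1 read 40.2 in B16-bearing lung and stayed under the floor in LLC-bearing lung (20.3), against 26.2 in control lung. In B16-bearing lung 4 of 4 were above control, where 49% of genes with a mean signal above the floor were, and 4 of 4 were above LLC-bearing lung, where 47.4% were. Their medians were 0.53 against control and 0.64 against LLC-bearing lung. These 2 comparisons share the B16-bearing array, and the 4 genes are not replicates. Against control the log2 differences of Ltbp1, Ltbp3, Ltbp2 and Ltbp4 were 0.62, 0.68, 0.44 and 0.15. The robust SDs of that comparison in their ranges of mean signal were 0.62, 0.53, 0.43 and 0.31, so none stood far out. Against LLC-bearing lung only Ltbp4, at 0.85, lay well beyond its robust SD of 0.30.

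Of the other members, which have none of these roles, Tgfb1i1 and Tgfbi separated the tumour models. Tgfb1i1 (Hic-5, gene ID 21804), a focal adhesion protein of smooth muscle and myofibroblasts, read 569 in B16-bearing and 248 in LLC-bearing lung, against 338 in control lung. It was 1.68-fold higher in B16-bearing lung and 1.36-fold lower in LLC-bearing lung, a log2 difference of 1.20 between the tumour models. Of the 7 smooth muscle markers 6 were above the floor (Smtn was below it throughout), 5 of these 6 were higher in B16-bearing than in LLC-bearing lung, and their summed signals were 2774 and 2214 against 2413 in control. The summed list put the 3 arrays in the same order as Tgfb1i1 and Ltbp4, but against control 3 of the 6 were higher in LLC-bearing lung (Actg2, Cnn1 and Des), and its part in those values was not tested. Bmp1, the procollagen C-proteinase that is no BMP ligand, read 93.3 and 94.6 against 67.9, while its second probe set read 70.1 and 63.8 against 76.2, in the opposite direction.

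Tgfbi (gene ID 21810), a secreted matrix protein induced by TGF-beta and abundant in macrophages, read 122 in B16-bearing and 255 in LLC-bearing lung, against 116 in control lung. Only LLC-bearing lung stood apart, with a log2 difference of 1.14 from control; B16-bearing lung was 2.09-fold below it. The second Tgfbi probe set, whose ID marks relaxed design rules, did not reach the floor on any array. Of 9 macrophage and monocyte markers on the array 7 were above the floor (Adgre1 and Marco were below it throughout). All 7 were higher in LLC-bearing lung than in control, 1 of 7 was higher in B16-bearing lung than in control, and 0 of 7 were higher in B16-bearing than in LLC-bearing lung. Their summed signals were 3389 in B16-bearing and 5335 in LLC-bearing lung, against 4389 in control lung. Tgfbi and Tgfb1 were each lower in B16-bearing than in LLC-bearing lung and highest in LLC-bearing lung, as these markers were. For Tgfb1 the rise in LLC-bearing lung over control was 1.17-fold, on dim signals. In B16-bearing lung against control, Tgfbi did not follow these markers. It was level there (122 against 116), while only 1 of the 7 markers was higher than control. Bmp6 was lowest in B16-bearing lung, as most of these markers were. In LLC-bearing lung it was 1.22-fold lower than control, where all 7 markers were higher. The part of such cells in these values was not tested.

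**Figure D3:**
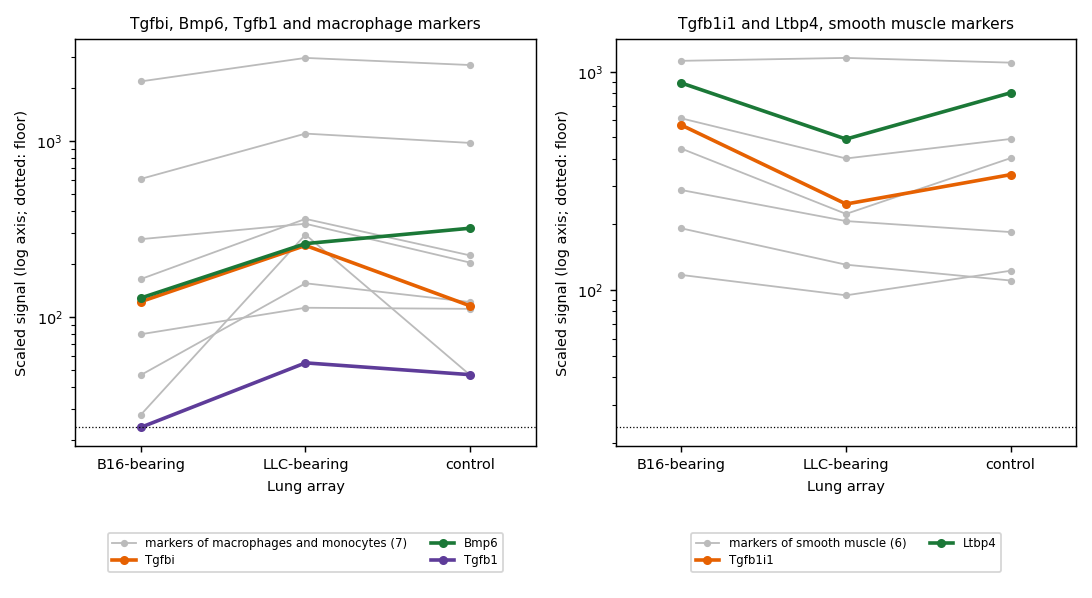
Scaled signals (log axis) in B16-bearing, LLC-bearing and control lung, with grey lines for single markers above the floor: 7 of macrophages and monocytes on the left beside Tgfbi, Bmp6 and Tgfb1, and 6 of smooth muscle on the right beside Tgfb1i1 and Ltbp4. Every macrophage marker peaks in LLC-bearing lung, as Tgfbi does at 255; lines join arrays only to guide the eye.

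Compared by role, the medians of ligands, receptors and Smads lay between −0.25 and 0.04. They were taken over genes whose mean over the 3 arrays was above the floor, 13 ligands, 5 receptors and 6 Smads. In B16-bearing lung against control the median log2 difference was −0.03 for ligands, 0.04 for receptors and −0.20 for Smads, and in LLC-bearing lung against control it was −0.08, −0.25 and −0.07. Between B16-bearing and LLC-bearing lungs the medians were −0.10, 0.02 and −0.03. The medians of all 5692 such genes were −0.0031, −0.00047 and −0.019 in the 3 comparisons. Single genes lay farther from 0 than these medians. Ligands ran from −1.32 to 0.59 in B16-bearing lung and from −1.54 to 0.89 in LLC-bearing lung, both against control, and receptors from −0.94 to 0.87 and from −0.86 to 0.85, with Acvr2a and Acvr1b at the ends.

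The pathway around the members was followed in 4 lists, which were chosen with earlier results of these data known. Of extracellular antagonists and modulators 23 were on the array and 9 had a mean above the floor. Of these 23, 0 differed by 2-fold in any comparison (from 2.17% to 3.59% of all genes did so in a given comparison and direction), and 11 were above the floor on any array. Lefty1, an inhibitor of Nodal, had the largest difference from control, with 38.6 and 76.5 against 40.3, followed by Fstl1, a follistatin-like protein of mesenchyme, with 212 and 200.2 against 167, and Htra1, a secreted protease, with 211 and 238 against 252. Of 8 co-receptors and receptor modulators, 1 was at least 2-fold lower in B16-bearing lung than in control (12.5%, against 3.42% of all genes), Neo1, the receptor neogenin that also binds repulsive guidance molecules. It read 39.1 in B16-bearing and 97.2 in LLC-bearing lung, against 109 in control lung. Eng, the endothelial co-receptor endoglin that works with Acvrl1, read 2809 and 2232 against 2157, and Xiap, an inhibitor of apoptosis, 29.0 and 26.4 against 38.6.

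Smad regulators and partners stood lower in LLC-bearing lung, with a median of −0.34 against control over 13 genes and 0.10 in B16-bearing lung. At 1.5-fold, 4 of 17 were lower in LLC-bearing lung than in control (23.5%, against 6.59% of all genes) and 1 was higher. Tgif2, a corepressor of Smads, read 99.5 in B16-bearing and 42.3 in LLC-bearing lung, against 93.0 in control lung. Crebbp, a histone acetyltransferase that Smads recruit, read 124 and 75.2 against 127. Usp15, a deubiquitinase of receptors and Smads, was higher in both lungs, with 229.7 and 277 against 125 (1.83-fold and 2.21-fold).

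Target genes of TGF-beta and BMP that differed from control by 2-fold were all higher, and at 1.5-fold some were lower. Of 34 on the array 29 had a mean above the floor, and 3 were at least 2-fold higher in B16-bearing lung than in control (8.82%, against 2.34% of all genes), with 0 at least 2-fold lower. In LLC-bearing lung 1 was at least 2-fold higher than control (2.94%, against 2.87% of all genes) and 0 were at least 2-fold lower. At 1.5-fold, 4 were higher and 2 lower in B16-bearing lung (6.81% and 9.94% of all genes), and 3 higher and 4 lower in LLC-bearing lung (6.77% and 6.59%). Cdkn1a, the cell cycle inhibitor p21, read 738 in B16-bearing and 369.8 in LLC-bearing lung, against 153 in control lung (4.83-fold and 2.42-fold higher). Eln, which encodes elastin, read 843 and 299 against 215.5, 3.91-fold higher in B16-bearing lung and 1.39-fold in LLC-bearing lung. Gata2, a transcription factor of endothelium and blood progenitors, read 477 and 256 against 222. These 3 were highest in B16-bearing lung, and each has regulators outside this pathway. The lower ones were Snai2 and Id4 in B16-bearing lung, and Acta2, Id1, Ccn1 and Snai1 in LLC-bearing lung. Values are given for some of them, chosen after they were seen. Snai2, a repressor of epithelial genes, read 105 and 159 against 208.5, in B16-bearing lung 1.99-fold lower. Acta2, smooth muscle actin and also on the smooth muscle list, read 445 and 223 against 402. Id1 read 603 and 431 against 680, and Id4 read 42.1 and 71.4 against 71.6. The medians over the 29 genes were 0.17 in B16-bearing and −0.01 in LLC-bearing lung, both against control.

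**Figure D4:**
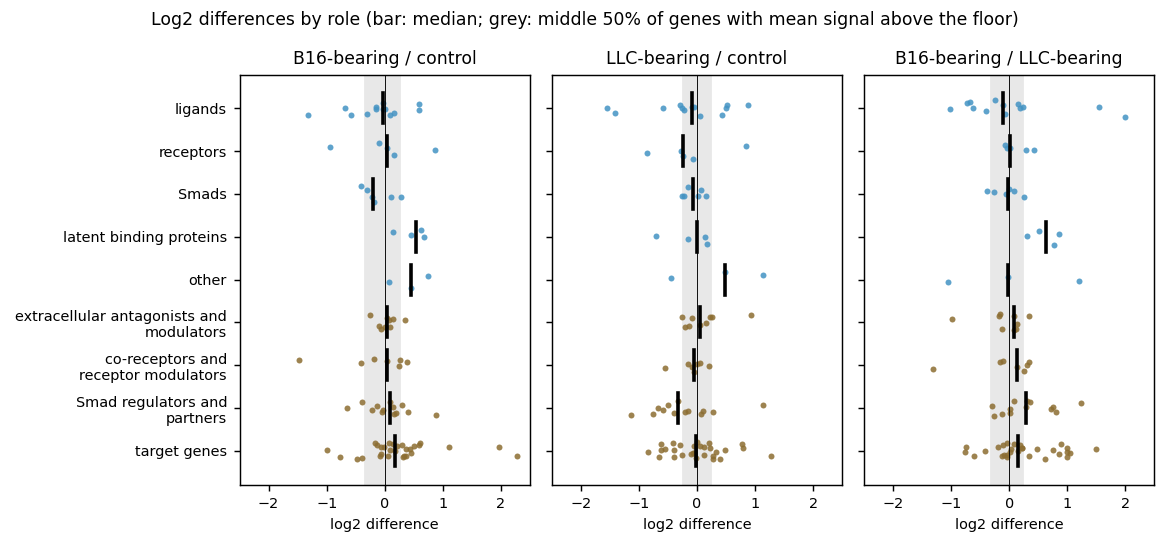
Log2 differences of single genes (points) with the median (black bar) for each role among the members (blue) and each list of other pathway genes (brown), over genes with a mean signal above the floor; grey bands hold the middle 50% of all 5692 such genes. The medians of the latent binding proteins lie right of the band in the first and the third panel, at 0.53 and 0.64, with Ltbp4 inside the band in the first at 0.15, while the medians of ligands, receptors and Smads run from −0.25 to 0.04.

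For 3 members the sequence upstream of the start site is given, 250 bases on the gene's strand, from RefSeq on GRCm38.p6. They are Tgfbi, higher in LLC-bearing lung, Bmp6, lower in B16-bearing lung, and Acvr2a, lower in both. Capitals mark the Smad motif CAGAC on either strand, so CAGAC or GTCTG.
Tgfbi, chr13:56609336-56609585 (+): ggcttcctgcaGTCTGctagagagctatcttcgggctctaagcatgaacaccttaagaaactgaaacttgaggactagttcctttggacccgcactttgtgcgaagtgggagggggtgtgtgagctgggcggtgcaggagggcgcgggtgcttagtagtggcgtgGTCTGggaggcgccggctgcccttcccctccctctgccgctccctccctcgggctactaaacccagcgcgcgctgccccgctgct
Bmp6, chr13:38345466-38345715 (+): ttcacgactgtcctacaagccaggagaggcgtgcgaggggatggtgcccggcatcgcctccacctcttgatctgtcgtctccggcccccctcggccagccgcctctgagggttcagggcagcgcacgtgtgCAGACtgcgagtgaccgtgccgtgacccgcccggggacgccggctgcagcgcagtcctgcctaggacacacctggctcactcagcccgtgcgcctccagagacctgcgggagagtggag
Acvr2a, chr2:48813859-48814108 (+): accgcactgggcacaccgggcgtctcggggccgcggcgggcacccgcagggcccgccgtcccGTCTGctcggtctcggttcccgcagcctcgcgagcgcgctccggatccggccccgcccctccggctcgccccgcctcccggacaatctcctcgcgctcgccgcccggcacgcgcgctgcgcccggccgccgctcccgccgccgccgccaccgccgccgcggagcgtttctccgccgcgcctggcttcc
The motif occurs 2 times in the Tgfbi window and 1 time in each of the windows of Bmp6 and Acvr2a. It is a common string, found in 42.2% of all 32851 upstream windows in the table and in 20 of the 42 windows (47.6%) of the 34 members listed there. The palindromic Smad box GTCTAGAC was found in 0.167% of all windows and in 0 of the 42. The arrays measured transcripts and nothing bound to these sequences.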

How the data were processed

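Per the labels' protocols, lung tissue was frozen, total RNA was taken out with TRIzol reagent, and biotinylated cRNA targets were hybridised. The authors deposited a linear intensity for every probe set on each of the 3 arrays; some lie below 0, so background had been subtracted. Which array software and probe summary they used is not given in the sources. Of 12488 probe sets, 66 manufacturer controls were set aside. Symbols are those of the GEO platform table (a single symbol for 10833 probe sets), and a RefSeq table holds the gene IDs of all 47 members under the same symbols.

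Computation used Python 3.11.15, numpy 2.4.6 and pandas 2.3.3. Arrays were brought to the control array by their median log2 ratio over positive probe sets with above-median mean (factors 0.987, 1.01 and 1 for B16-bearing, LLC-bearing and control lung). Log2 was taken after low values had been raised to the 40th percentile. The number of arrays, 1 per group, limits the precision. Signals are given for members at least 1.5-fold different in any comparison, for the main ligands, receptors and Smads, and for the 3 genes per pathway list that differ most from control; other genes with values were added after these were seen. The members and lists were chosen with earlier results of these data known. The steps were tested on simulated data with planted changes. Alternatives changed the array factors, the floor, the probe set and the fold.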

Additional observations from a re-analysis of the deposited data

Results flagged for a closer look

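Members that stood on opposite sides of control lung by at least 1.25-fold in the tumour-bearing lungs were singled out, and the difference was not tested, since each group has 1 array. Tgfb1i1 was above control in B16-bearing lung and below it in LLC-bearing lung, with a log2 difference of 1.20 between B16-bearing and LLC-bearing lungs. Gdf9 showed the same order, with a bound of 2.0015 that rests on signals under 100.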

How the results depend on the processing

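No member with a 2-fold difference changed sign under the alternatives that were run, but these could hardly change a sign. Another floor cannot do so, the array factors were all near 1, and of these members only Bmp6 has another probe set above the floor. The planned floor at the 20th percentile was not run, because that percentile (−0.506) lies below 0 and has no log; a floor at the 30th percentile was added after seeing the data. With it, 1 member (Bmpr1b) was at least 2-fold higher and 2 (Bmp6 and Tgfb1) at least 2-fold lower in B16-bearing lung than in control (4.21% and 6.08% of all genes), 5 were higher in B16-bearing than in LLC-bearing lung (4.42%), and the receptor median there was 0.15. With the floor at the 60th percentile, 0 members were at least 2-fold lower in LLC-bearing lung than in control (0.485% of all genes). There 1 member (Tgfb1i1) was at least 2-fold higher in B16-bearing than in LLC-bearing lung (0.751%). With the floor at a signal of 100 both counts were the same (0.218% and 0.376% of all genes). The 2-fold differences of Gdf3 and Gdf9 thus depend on the floor. So does that of Tgfb1 between B16-bearing and LLC-bearing lungs, which was lost at both of these floors. At the 60th percentile the log2 differences from control were 0.09 for Bmp2 in LLC-bearing lung and 0.21 for Ltbp3 in B16-bearing lung, against 0.89 and 0.68 at the floor used. At the 60th percentile the receptor median in B16-bearing lung against control was −0.11 and the ligand median between B16-bearing and LLC-bearing lungs 0.039. At 100 the medians of all members and of ligands in LLC-bearing lung against control were −0.22 and −0.24, and between B16-bearing and LLC-bearing lungs those of all members, ligands and receptors were 0.16, 0.17 and 0.20. Averaging the probe sets of a gene, or leaving out those whose ID has a suffix, put the ligand median in B16-bearing lung against control at −0.15, and leaving them out put the receptor median in LLC-bearing lung against control at −0.12. At 1.5-fold in place of 2-fold the counts higher and lower were 5 and 4 in B16-bearing lung and 3 and 4 in LLC-bearing lung against control, and 5 and 6 between B16-bearing and LLC-bearing lungs. Medians that require only 1 of the 2 arrays compared to exceed the floor, also added later, were 0.16 for receptors in B16-bearing lung against control and 0.24 between B16-bearing and LLC-bearing lungs. Bmp6 was at least 2-fold lower in B16-bearing lung than in control, and Tgfbi at least 2-fold higher in LLC-bearing lung, under every setting that was run; with the deposited values, factors from all probe sets or averaged probe sets Bmp6 no longer differed 2-fold between B16-bearing and LLC-bearing lungs. The cause of these shifts was not tested. Dim signals limit Gdf3, Gdf9, Tgfb1, Bmp2, Ltbp3 and Acvr1b. No paired analysis was possible because each group has 1 array.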
